A study of Mus musculus with 17 samples.

Results

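The CC and CXC chemokines and their receptors were followed across all 17 arrays of sorted skeletal progenitors from mouse fracture callus and uninjured bone. Members were all probe sets whose only annotated symbol began with Ccl, Ccr, Cxcl or Cxcr and a digit, with Cxcl12 left out. That gave 67 of the 34945 probe sets with 1 symbol, or 45 of 18193 genes, of which 33 were bright enough to be tested among 14504 tested genes. The arrays, Affymetrix mouse expression arrays with 1 color, carried RNA of mouse skeletal stem cells (mSSCs, 9 arrays) and of their progeny, the bone, cartilage and stromal progenitors (mBCSPs, 8 arrays), from female C57BL/6 mice. Both populations were sorted as cells with integrin alpha V and without CD45, Ter119 and Tie2, surface proteins of white blood cells, red cell precursors and vessel lining.

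Ovary or sham surgery was done at 8 weeks of age, a pinned femoral fracture at 14 weeks, and bone was taken on day 7 after fracture. The callus groups were sham (n = 4), ovariectomized (OVX, n = 2) and OVX given 17-beta estradiol (OVX + E2, n = 2), and the uninjured groups were sham (n = 3) and OVX (n = 2). Each group of 2 held 1 mSSC and 1 mBCSP array. A further 2 callus arrays had surgery labels that conflicted between OVX and sham, and 2 gave no ovary surgery. In the main fits these were placed in no ovary state. They stayed in the fits as groups of their own, so they bear on the spread and on the p-values. Nothing in the labels says which arrays came from separate animals, and the p-values therefore measure only the spread between these arrays. The sample titles were written in 3 forms, called here i (surgery and population; 6 callus arrays, 2 each of sham, OVX and OVX + E2), ii (surgery, injury and population; 4 callus and 3 uninjured arrays) and iii (population and injury; 2 callus and 2 uninjured arrays). What a title form stands for in the laboratory is not stated. In the fitted models of ovary states, terms for group and title form gave each pair of mSSC and mBCSP arrays its own level. The p-values of these models measure how the difference between the populations varied over 8 pairs. They hold no spread between replicates of an ovary state.

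Chemokines are small secreted proteins that guide leukocytes through receptors with 7 membrane spans. CC ligands mostly act on monocytes, eosinophils and lymphocytes, and the CXC ligands of the Cxcl1, Cxcl2 and Cxcl5 type act on neutrophils through Cxcr2. In injured bone, stromal cells release ligands that call in blood cells, and the arriving myeloid cells make further ligands and carry most of the receptors. The ligands were accordingly listed as stromal (8 tested of 9 with a probe set), interferon-inducible (2 of 3), blood cell (10 of 12) and other ligands (4 of 6), beside CC receptors (5 of 10) and CXC receptors (4 of 5). Many of these genes can be made by more than 1 cell type, so the list names say where a gene is best known, not where it was made here.

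Cxcl1 and Cxcl2 lie next to each other on chromosome 5 and code for closely related neutrophil attractants, yet they went in opposite directions with injury. Cxcl10, an interferon-inducible ligand on the same chromosome, was highest on the 6 callus arrays of form i. On those arrays Cxcl1 was bright as well, while Cxcl2 lay below its uninjured values. Their promoters are shown because all 3 hold a match to the NF-kB consensus (marked in capitals), the site of the transcription factor that inflammatory cytokines activate. The windows are the 250 bases before the start of transcription in RefSeq (build GRCm38.p6), 5′ to 3′ on the strand of the gene: Cxcl1 at chr5:90890995-90891244 (plus strand), Cxcl2 at chr5:90903649-90903898 (plus strand) and Cxcl10 at chr5:92348890-92349139 (minus strand).
Cxcl1: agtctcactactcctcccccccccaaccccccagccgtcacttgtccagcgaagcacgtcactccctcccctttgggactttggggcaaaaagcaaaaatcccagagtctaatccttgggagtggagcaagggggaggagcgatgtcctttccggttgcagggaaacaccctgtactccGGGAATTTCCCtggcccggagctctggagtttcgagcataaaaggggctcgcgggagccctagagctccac
Cxcl2: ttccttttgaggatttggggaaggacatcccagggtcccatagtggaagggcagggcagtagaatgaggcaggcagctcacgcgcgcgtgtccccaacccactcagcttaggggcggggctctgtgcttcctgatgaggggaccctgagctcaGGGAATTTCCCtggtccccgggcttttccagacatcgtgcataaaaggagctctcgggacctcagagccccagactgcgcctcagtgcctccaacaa
Cxcl10: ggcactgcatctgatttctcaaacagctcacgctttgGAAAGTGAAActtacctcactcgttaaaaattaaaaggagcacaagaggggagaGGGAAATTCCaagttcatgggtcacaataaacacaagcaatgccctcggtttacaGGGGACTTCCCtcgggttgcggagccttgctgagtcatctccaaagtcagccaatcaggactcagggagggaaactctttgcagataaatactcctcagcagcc
In Cxcl1 and Cxcl2 the capitals spell the same 11 bases, which hold a match on each strand, and it begins 71 bases before the start in Cxcl1 and 97 bases before it in Cxcl2. In Cxcl10 the capitals mark 2 such stretches, beginning 159 and 104 bases before the start, and a match to the interferon-stimulated response element (ISRE, searched as GAAA, any 2 bases and GAAA) beginning 213 bases before it. On either strand, the NF-kB consensus was found in 7.25% and the ISRE in 2.98% of all 32851 promoter windows of this length. Of the 32 member genes with a window in the table, 10 held the NF-kB consensus and 2 the ISRE. TATAAA, searched in the same way, was found in 12.4% of all windows and in 10 of the 32. A match is a description of the letters and not evidence of binding. The windows of Cxcl5 and Ccl2 were not analysed here.

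The first question was how the chemokine system of these progenitors differed between callus and uninjured bone. Of the tested members, 6 of 10 blood cell ligands and 5 of 9 receptors fell in callus, and no other member of these lists passed the test. Among the stromal ligands, Cxcl1 and Cxcl5 rose and no tested member fell. Counted over all members, 13 of 33 were called (limma with population and title form as terms, adjusted p under 0.05), which is near the 42.4% called among all tested genes. With title form as a term, the fold changes rest on the 6 callus arrays of forms ii and iii, since form i has no uninjured arrays. These 6 include the conflicting and the unstated arrays. The fit had no term for ovary state, and both OVX uninjured arrays are of form ii. Ranges and medians of callus values below cover all 12 callus arrays unless a form is named. By direction, 2 of 33 were higher, where the background was 22.6%, and 11 of 33 were lower, where the background was 19.8%. The median log2 fold change was 0.23 for stromal ligands, -1.14 for blood cell ligands and -0.82 for receptors, against 0.02 for all tested genes. Ccl5 was the last member inside the threshold (adjusted p = 0.031) and Cxcl10 the first outside it (-0.47, adjusted p = 0.107), and the other interferon-inducible ligand, Cxcl9, stood at 0.02.

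**Figure D1:**
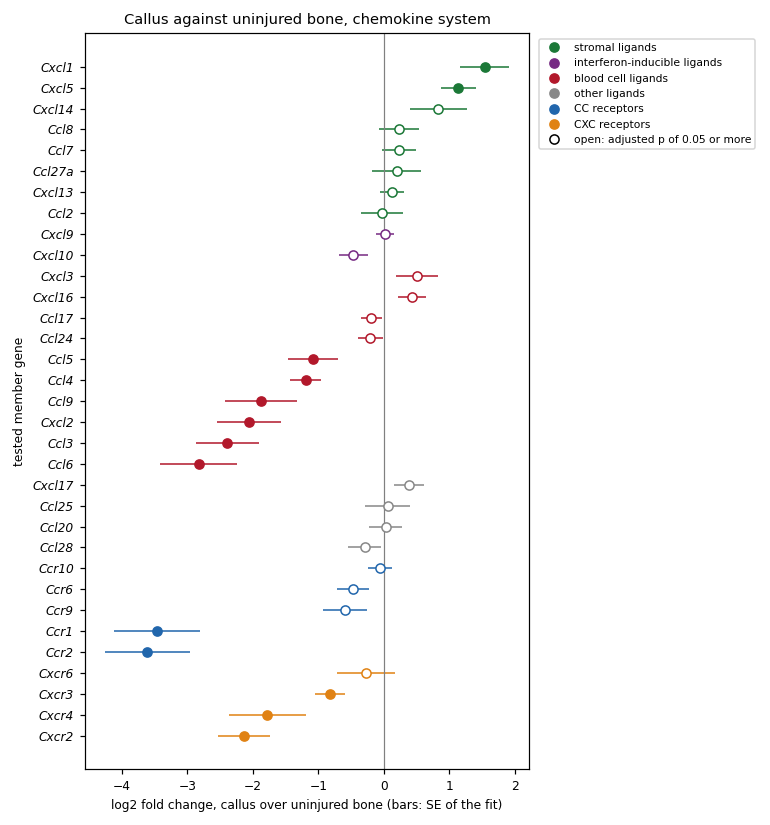
Log2 fold change of the 33 tested members in callus over uninjured bone, with the standard error of the limma fit as bars, colored by list. Filled points passed the test: Cxcl1 and Cxcl5 lie to the right of 0 and 11 members to the left, down to -3.61 for Ccr2.

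Cxcl1, which draws neutrophils through Cxcr2, was bright on every callus array: 12.55 to 12.90 (median 12.75) on the 6 arrays of form i, 12.61 and 12.82 on the other sham arrays, 12.28 and 12.12 on the conflicting arrays, and 12.35 and 11.27 on the unstated arrays (normalized log2 intensity here and below). The uninjured sham arrays gave 9.78, 10.70 and 8.02, and the uninjured OVX arrays 12.58 and 11.61. The sham arrays of uninjured bone thus lay below all callus arrays, while the OVX arrays reached into the callus range. The log2 fold change was 1.54 (SE 0.38, adjusted p = 0.00349). It was 0.74 (SE 0.38) within form ii and 2.91 (SE 0.59) within form iii. Without the conflicting and the unstated callus arrays, Cxcl1 stood at 0.99 and lost its call (adjusted p = 0.0712). That value rests on form ii alone, on its sham callus arrays against its sham and OVX uninjured arrays. The other probe sets of Cxcl1 gave 1.95 and 1.39. The set used here is of a type that can match related transcripts (suffix s).

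Cxcl5, a ligand of the same receptor, was at the floor of the measurement (log2 5.95) on all 5 uninjured arrays. In callus it ran from 11.45 to 12.29 (median 11.77) on the 6 arrays of form i, and was 8.06 and 6.43 on the other sham arrays, 7.64 and 7.66 on the conflicting arrays, and 7.26 and at the floor on the unstated arrays. All callus arrays but 1 were therefore above uninjured bone, and callus itself fell into a bright and a dim set. The fitted log2 fold change of 1.14 (SE 0.27, adjusted p = 0.00275) rests on the dim set, since form i has no uninjured arrays. It was 1.41 (SE 0.33) within form ii and 0.66 (SE 0.40) within form iii, where it lost its call (limma, adjusted p = 0.431). As a contrast of the sham callus and sham uninjured groups, fitted with all arrays, it was 1.07 and also lost its call. That value rests on 1 uninjured sham array, the mSSC array of form ii. Against the floor, the callus mean was 2.32-fold higher over the 6 callus arrays of forms ii and iii and 11.7-fold higher over all 12, with the 1 callus array at the floor counted at that level.

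The other stromal ligands did not pass the test between callus and uninjured bone. Cxcl14, a ligand made by fibroblasts and epithelia, stood at 0.83 (SE 0.44, adjusted p = 0.143), with -0.01 within form ii and 2.37 within form iii. Ccl7 and Ccl8, monocyte attractants, stood at 0.23 each, Ccl27a, the ligand of Ccr10, at 0.19 and Cxcl13, which draws B cells, at 0.12. Ccl2, the main ligand of Ccr2, stood at -0.03 (SE 0.32), where its signs in forms ii and iii were opposite (-0.39 and 0.60). Ccl11, an eosinophil attractant, was at the floor on all 17 arrays.

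**Figure D2:**
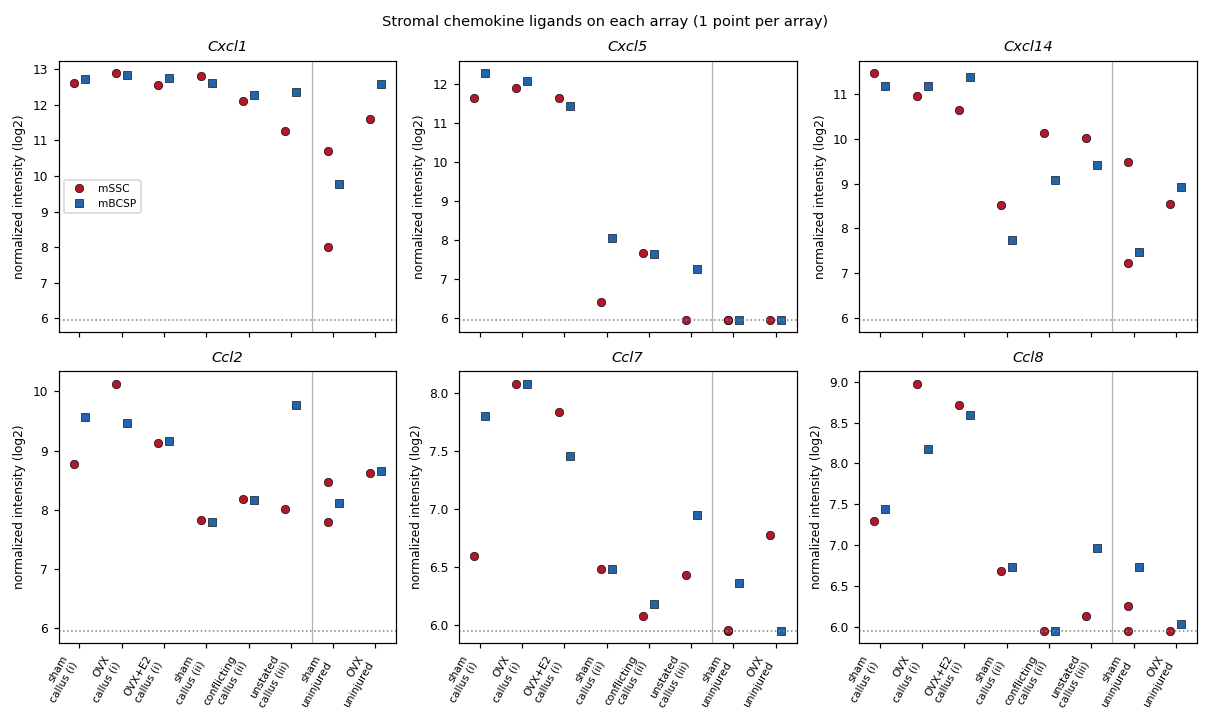
Normalized log2 intensity of 6 stromal ligands, 1 point per array, by group, with circles for mSSC and squares for mBCSP arrays and the title form of callus arrays in brackets (uninjured groups pool forms ii and iii). The dotted line is the floor at 5.95 and the vertical line separates callus from uninjured arrays. Cxcl5 is at the floor on all 5 uninjured arrays and at 11.45 to 12.29 on the callus arrays of form i.

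Among the blood cell ligands, Ccl6, Ccl3, Cxcl2, Ccl9, Ccl4 and Ccl5 fell in callus. Ccl6, a myeloid CC ligand of rodents, was 13.55, 13.73 and 12.88 on the uninjured sham arrays and 13.04 and 13.13 on the uninjured OVX arrays, against 7.26 to 11.99 (median 9.27) on the 12 callus arrays. Every callus array lay below every uninjured array. The log2 fold change was -2.83 (SE 0.59, adjusted p = 0.00105). Ccl3, a macrophage ligand of Ccr1, was 12.55, 12.58 and 11.37 on sham and 11.32 and 11.22 on OVX uninjured arrays, against 6.76 to 10.95 (median 8.09) in callus, again with no overlap. It fell by 2.39 on the log2 scale (SE 0.48, adjusted p = 0.000834). Its partner Ccl4, also a macrophage ligand, fell by 1.197 (SE 0.23, adjusted p = 0.000602), with 8.63 to 10.17 on the uninjured arrays and 7.18 to 9.29 in callus, where the unstated arrays reached into the uninjured range.

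Cxcl2, the neighbor of Cxcl1, was 13.35, 13.82 and 12.87 on sham and 13.66 and 13.13 on OVX uninjured arrays. In callus it ran from 9.01 to 10.46 on form i, and was 9.55 and 10.23 on the other sham arrays, 11.46 and 12.73 on the conflicting arrays, and 12.68 and 10.98 on the unstated arrays. The groups did not overlap, but the callus arrays without settled surgery labels lay nearest to uninjured bone. The log2 fold change was -2.06 (SE 0.49, adjusted p = 0.00278), with -2.46 and -1.28 within forms ii and iii. For the same 2 forms Cxcl1 was higher in callus in both, so the genes beside each other moved apart in each form, although within either form alone 1 of the pair missed the threshold (Cxcl1 in form ii, adjusted p = 0.172, and Cxcl2 in form iii, adjusted p = 0.177).

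Ccl9, a myeloid ligand of Ccr1, fell by 1.88 (SE 0.55, adjusted p = 0.011), but its callus arrays of form i (11.08 to 11.78) lay within the uninjured range (10.46 to 13.02), and without the title form term it missed the threshold (-1.24, adjusted p = 0.0884). Ccl5, made by T and NK cells, fell by 1.08 (SE 0.38), with 10.28, 9.31 and 9.58 on the uninjured arrays of form ii and 6.56 and 6.84 on those of form iii. Its drop is therefore one of form ii alone (-1.72; 0.13 within form iii), and it lost its call without any 1 of 6 arrays, namely either OVX uninjured array, the uninjured sham array of form ii, either sham callus array of form ii or the conflicting mBCSP array (adjusted p up to 0.102). The remaining 4 tested blood cell ligands did not pass the test. Cxcl3, a further Cxcr2 ligand, stood at 0.51 and Cxcl16, which is held on the cell membrane, at 0.43, while Ccl17, a ligand of Ccr4, and Ccl24, a ligand of Ccr3, stood at -0.19 and -0.21.

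**Figure D3:**
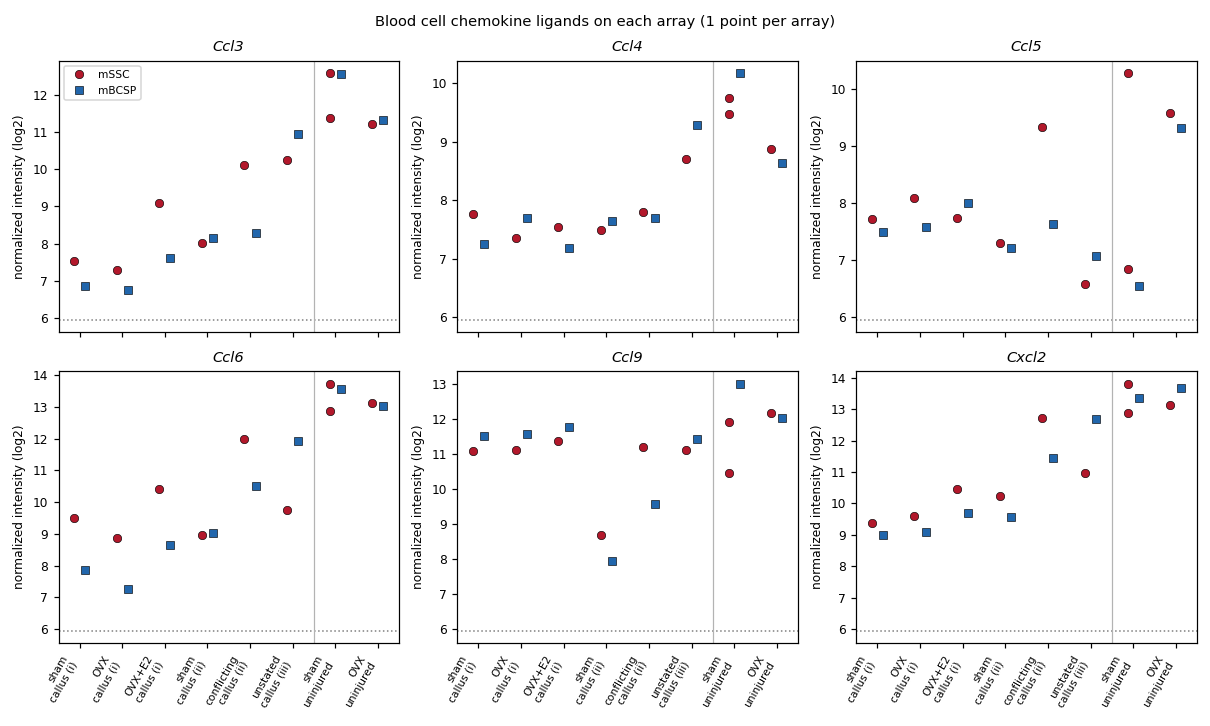
Normalized log2 intensity of the 6 blood cell ligands called between callus and uninjured bone, drawn as for the stromal ligands. Ccl3, Ccl6 and Cxcl2 have no callus array at or above an uninjured one, whereas Ccl9 on the callus arrays of form i lies at 11.08 to 11.78, inside the uninjured range.

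All 9 tested receptors had negative log2 fold changes in callus and 5 fell. Ccr2, the receptor by which inflammatory monocytes leave the marrow, was 10.21, 10.91 and 8.36 on sham and 12.24 and 11.79 on OVX uninjured arrays. In callus 4 of 12 arrays were at the floor and the median was 6.37, with a single value above 8, the conflicting mSSC array at 10.57. It fell by 3.61 on the log2 scale (SE 0.65, adjusted p = 0.00031), the widest change among members. Of its other 3 probe sets, 1 gave -2.73, 1 gave -0.77 and did not pass (adjusted p = 0.39), and 1 was at the floor on 13 arrays and too dim to be tested (-0.45). Ccr1, which binds Ccl3, Ccl5 and Ccl9 on monocytes and neutrophils, was 12.85 to 13.74 on the uninjured arrays and 5.95 to 11.91 (median 8.70) in callus, without overlap, and fell by 3.46 (SE 0.66, adjusted p = 0.000503).

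Cxcr2, the neutrophil receptor of Cxcl1, Cxcl2 and Cxcl5, was 11.07 to 11.76 on the uninjured arrays and 6.93 to 10.48 (median 8.03) in callus. It fell by 2.13 (SE 0.40, adjusted p = 0.000437) without overlap. Of the ligands just named, Cxcl1 and Cxcl5 rose and Cxcl2 fell. Cxcr4, the receptor that holds blood progenitors in the marrow, was 14.05 to 14.36 on the uninjured arrays and 8.47 to 14.11 in callus. It fell by 1.78 (SE 0.58, adjusted p = 0.0217), and lost its call without any 1 of 5 arrays, namely either OVX uninjured array, the uninjured sham array of form ii, the sham callus mSSC array of form ii or the unstated mSSC array (adjusted p up to 0.0649). Cxcr3, the receptor of Cxcl9 and Cxcl10 on T cells, fell by 0.82 (SE 0.22, adjusted p = 0.00704), with -1.196 within form ii and -0.14 within form iii. Ccr9, Ccr6, Cxcr6 and Ccr10 stood at -0.59, -0.48, -0.27 and -0.06 and did not pass. They are the receptors of Ccl25, Ccl20, Cxcl16 and Ccl27a in that order.

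Over the 17 arrays, callus and uninjured values did not overlap for 5 of 33 members, Ccl3, Ccl6, Ccr1, Cxcl2 and Cxcr2, all of them lower in callus, where the background was 7.03% of tested genes. None lay wholly higher, where the background was 8.45%.

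**Figure D4:**
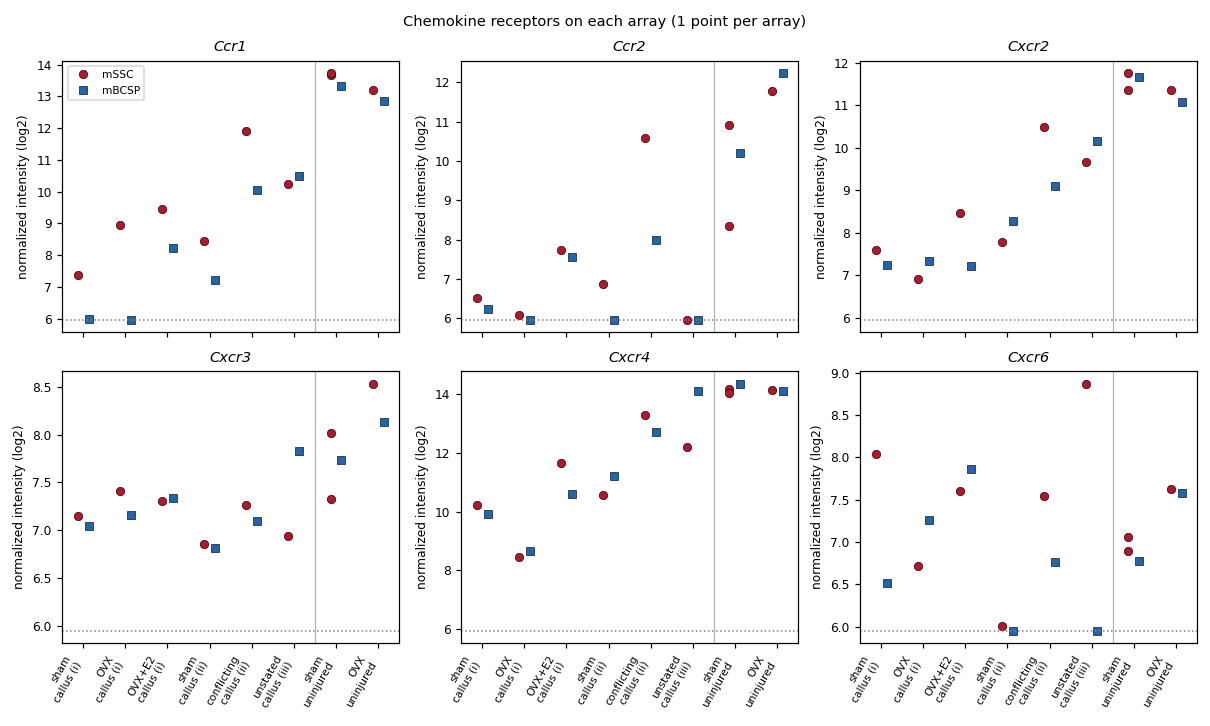
Normalized log2 intensity of 6 receptors, drawn as for the stromal ligands. Ccr1 and Cxcr2 do not overlap between callus and uninjured arrays. Cxcr4 runs from 8.47 to 14.11 in callus and from 14.05 to 14.36 in uninjured bone.

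Markers of blood cells moved with these genes. All 5 leukocyte markers fell in callus (median log2 fold change -2.36), among them Ptprc, which encodes the CD45 against which the cells were sorted (-2.89, SE 0.72, adjusted p = 0.00397). No leukocyte marker was at the floor on any array. Their summed signal was 15.91 to 16.21 (log2) on the 5 uninjured arrays, 10.21 to 13.03 on callus arrays of form i, 11.96 and 12.06 on the other sham callus arrays, 13.63 and 15.19 on the conflicting arrays and 13.62 and 14.71 on the unstated arrays. Of the other lists, 4 of 9 macrophage and monocyte markers, 2 of 8 neutrophil markers, 3 of 6 B and plasma cell markers and 3 of 4 tested T and NK cell markers fell, as did 1 of 5 megakaryocyte and platelet markers and 0 of 3 tested erythroid markers, and none rose (limma; the erythroid markers had 0 with an unadjusted p under 0.05). Among all tested genes 19.8% fell, and the counts of neutrophil and platelet markers are near that share. In the opposite sense, 9 of 11 skeletal markers rose in callus (median 2.29), and their summed signal was 16.59 to 17.13 there and 12.83 to 15.77 in uninjured bone. Sp7, the transcription factor of osteoblast precursors, was between 5.95 and 7.16 on the uninjured arrays, where Itgav, which encodes the integrin used in the sort, was between 10.51 and 11.46. The part of these markers in the chemokine differences was not tested. In such bulk samples, fewer cells of a type and less RNA per cell cannot be told apart.

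The highest callus value of 6 of 33 tested members, all blood cell ligands or receptors, was on the conflicting mSSC array, as it was for 6.36% of all tested genes. That of 11 members was on the unstated mBCSP array, 7 of them blood cell ligands or receptors, 3 other ligands and 1 a stromal ligand (Cxcl13), beside 24.3% of all tested genes. These were the 2 callus arrays with the highest summed leukocyte signal. Without the conflicting and unstated arrays the comparison called 14 members, 1 higher (Cxcl5) and 13 lower, where 46.5% of all tested genes were called. With title form as a term, it then rests on the sham callus arrays and the uninjured arrays of form ii alone.

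Around the members, other genes of the chemokine system went both ways in callus. Ackr3, a scavenger receptor for Cxcl12 in stromal cells, rose (1.79, SE 0.40, adjusted p = 0.00168). Ppbp, a CXC ligand of platelets, Cx3cr1, a monocyte receptor, Ackr4, a scavenger of CC ligands, and Ccrl2, a receptor-like protein of myeloid cells, fell, so that 1 of 9 tested genes was higher and 4 were lower, beside 22.6% and 19.8% of all tested genes. Of 17 tested inducers and NF-kB genes, 3 rose, a share below that of all genes, and 8 fell. Those that rose were Ptx3, a soluble pattern receptor (4.75, SE 0.29), Il6 (1.28) and Il1r1, the receptor of interleukin 1 (1.23). Il6 was 6.17 on the uninjured sham mBCSP array and at the floor on the other uninjured arrays. In callus it was 9.48 to 9.89 on form i and ran from the floor to 8.25 on the other arrays. Il1r1 was 10.854 to 11.605 on form i and 8.89 to 10.33 on the other callus arrays. Among those that fell were Il1b (-2.22), Tnf (-0.91) and the NF-kB inhibitors Nfkbia (-1.19) and Tnfaip3 (-1.22).

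The callus arrays themselves differed by title form. Of the 33 tested members, 6 were higher on each of the 6 arrays of form i than on any other callus array, where the background was 4.78% of tested genes. They were Cxcl5, Cxcl14, Ccl8, Cxcl9, Cxcl10 and Cxcl16, that is 3 of 8 stromal ligands, both tested interferon-inducible ligands and 1 of 10 blood cell ligands. Ccr9 alone lay wholly lower on form i, where the background was 2.03%. The sham callus group is in both sets and shows the same within 1 label. Cxcl5 was 12.29 and 11.64 on the sham arrays of form i and 8.06 and 6.43 on those of form ii, a difference in means of 4.73 on the log2 scale. Cxcl14 was 11.17 and 11.47 against 7.75 and 8.52, Cxcl9 was 7.13 and 7.58 against the floor on both, and Cxcl10 was 7.84 and 8.37 against 6.887 and 7.003. Cxcl1 did not follow them, with 12.73 and 12.63 against 12.61 and 12.82. With 2 arrays on each side these are descriptions without a test. As all OVX and OVX + E2 callus arrays are of form i, the brightness of these ligands there cannot be told apart from the title form, and ovary states were compared with the title form as a term.

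**Figure D5:**
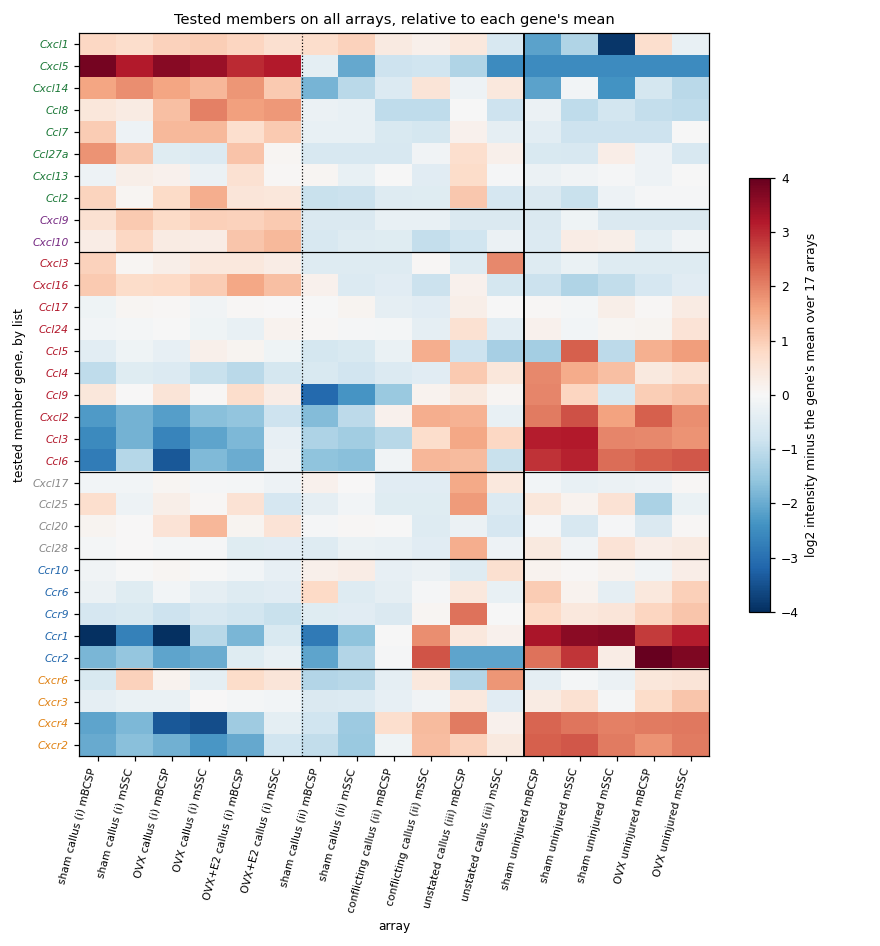
Normalized log2 intensity of the 33 tested members minus each gene's mean over the 17 arrays, in rows by list and in columns by group, with the title form of callus arrays in brackets. The dotted line separates form i from the other callus arrays and the solid line callus from uninjured bone. Cxcl5, Cxcl14 and Ccl8 are high on form i, and Ccr1, Ccl6, Ccl3 and Cxcl2 are high on the uninjured arrays.

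The second question was the effect of ovariectomy on callus progenitors. No member was called between OVX and sham callus, where the background was 0% of tested genes. An unadjusted p under 0.05 was found for 4 of 33 members and for 293 of 14504 tested genes (limma). The methods' t-test called no member after adjustment and had 3 at that level. Ccl27a was 8.41 (mBCSP) and 7.69 (mSSC) on the sham arrays of form i and 6.12 and 6.05 on the OVX arrays. Both OVX arrays lay below both sham arrays of the form, with a log2 fold change of -1.97 (SE 0.41, adjusted p = 1). The other sham arrays, of form ii, were at the floor for this gene, and without the title form term the value was -0.92. Its probe set is of a type that can cross-hybridize (suffix x).

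Ccl8 was 7.44 and 7.30 on sham and 8.18 and 8.98 on OVX arrays of form i, a log2 fold change of 1.21 (SE 0.34). Ccl20, the ligand of Ccr6, stood at 0.88 (SE 0.35) and Ccl7 at 0.88 (SE 0.40), of which Ccl7 had 7.80 and 6.59 on sham and 8.08 and 8.07 on OVX arrays. The sham values of Ccl7 lay 1.21 apart, and its difference was 1.48 in mSSCs and 0.28 in mBCSPs. Both sham arrays of form ii stood at 6.48, near the sham mSSC value. On form i, the OVX and OVX + E2 arrays stood at 7.45 to 8.08, nearer to the sham mBCSP value. Which sham value was set apart therefore depends on the arrays set beside it. Without the title form term the value of Ccl7 was 1.24. Ccl2 stood at 0.63 (SE 0.49). Cxcl1 and Cxcl5, the ligands that rose with injury, stood at 0.19 (SE 0.42) and 0.02 (SE 0.45), with Cxcl1 at 12.73 and 12.63 on sham and 12.84 and 12.90 on OVX arrays. Over the lists, 5 of 8 stromal ligands, 6 of 10 blood cell ligands and 4 of 9 receptors had positive values.

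Cxcr4 was 9.93 and 10.24 on the sham callus arrays of form i, 8.64 and 8.47 on the OVX arrays and 10.60 and 11.64 on the OVX + E2 arrays. Both OVX arrays were the lowest for it among all 17. The log2 fold change was -1.52 (SE 0.52, adjusted p = 1) in OVX against sham, and it became 0.28 with the conflicting arrays counted as OVX. In OVX + E2 against OVX callus, which asks what estradiol does after ovariectomy and shares the OVX arrays, Cxcr4 stood at 2.56 (SE 0.52, adjusted p = 0.406, limma), with 1.95 in mBCSPs and 3.17 in mSSCs. It passed the test without either unstated array (adjusted p = 0.0411 and 0.0412) and without the 4 arrays of unsettled surgery labels (0.0432), which changed the spread and not the value. In the other alternatives its adjusted p was 0.319 to 1.

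No member was called between OVX + E2 and OVX callus, where the background was 0.0207%. An unadjusted p under 0.05 was found for 5 of 33 members and for 332 of 14504 tested genes (limma). The methods' t-test called no member after adjustment and had 4 at that level. Cxcl10 was 7.87 and 7.82 on the OVX arrays and 8.65 and 8.82 on the OVX + E2 arrays, a log2 fold change of 0.89 (SE 0.32). The OVX + E2 arrays were the brightest 2 of all 17 for this gene. Ccl27a stood at 1.12 (SE 0.41), Ccr1 at 1.39 (SE 0.61) and Ccr2 at 1.64 (SE 0.74). The second probe set of Ccr1 gave 0.07, and those of Ccr2 gave 0.76, 0.02 and, on the set too dim to be tested, 0. Ccr2 was at the floor and 6.08 on the OVX arrays and 7.55 and 7.75 on the OVX + E2 arrays. Of the tested members, 20 were higher and 13 lower (median 0.04, all genes 0.02), with 9 of 10 blood cell ligands, 6 of 9 receptors and 3 of 8 stromal ligands higher.

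Markers of white blood cells went the same way in this comparison. All 5 leukocyte markers (median 1.86), all 8 neutrophil markers (1.68) and all 9 macrophage and monocyte markers (1.81) had positive log2 fold changes in OVX + E2 against OVX callus. So did 6 of 6 B and plasma cell markers (0.32) and 3 of 4 tested T and NK cell markers (0.58). Of the remaining blood lists, 2 of 5 megakaryocyte and platelet markers (-0.03) and 0 of 3 tested erythroid markers (-0.08) were positive. None of these markers was called. The summed leukocyte signal was 11.10 and 11.57 on the sham arrays of form i, 10.21 and 10.99 on the OVX arrays and 11.99 and 13.03 on the OVX + E2 arrays, the same order as for Cxcr4. Their part in the receptor values was not tested. Skeletal markers had a median of 0.00.

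In uninjured bone, no member was called between OVX and sham arrays, where the background was 0.145% (limma; the methods' t-test called none after adjustment). With the title form as a term this comparison rests on 1 sham mSSC array. Ccl4 was 9.74 on that array and 8.63 and 8.87 on the OVX arrays (-1.02, SE 0.43, adjusted p = 0.579), and Ccl3 12.58 against 11.32 and 11.22 (-1.16, SE 0.78). Cxcl1 was 10.70 against 12.58 and 11.61, a log2 fold change of 1.15 (SE 0.52, adjusted p = 0.65). It passed the test without the title form term (2.54, adjusted p = 0.0292), where the dim sham arrays of form iii, 9.78 and 8.02, also count. Ccl25 stood at -1.10 and its second probe set at 0.16. Cxcl14 stood at -0.69 and had the opposite sign without the title form term (0.72).

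The effect of ovariectomy was not found to differ between callus and uninjured bone for any member (limma interaction, 0 called). The largest difference among members by p was that of Ccl27a, -2.10 (SE 0.66, adjusted p = 0.864).

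The last question was whether the populations differed. No member was called between mSSCs and mBCSPs, where the background was 0%. An unadjusted p under 0.05 was found for 2 of 33 members and for 1401 of 14504 tested genes (limma). The methods' t-test had no member at either level. Ccr1 was higher in mSSCs in 7 of 8 pairs of arrays that share group and title form, with pair differences from -0.26 to 2.996 and a log2 fold change of 1.15 (SE 0.30, adjusted p = 0.342). Cxcl1 was lower in mSSCs in 6 of 8 pairs (-0.50, SE 0.21), Cxcl16 in 6 of 8 (-0.29, SE 0.16; 0.09 on its second probe set) and Cxcl5 in 4 of 8, with 2 pairs higher and 2 at the floor on both arrays (-0.45, SE 0.22). Cxcr6, the receptor of Cxcl16, was higher in 6 of 8 pairs (0.58, SE 0.34). Leukocyte markers were higher in mSSCs for 5 of 5 genes (median 0.40) and endothelial markers lower for 6 of 6 (-2.24), none of them called, and their part was not tested. The injury effect was not found to differ between the populations (limma interaction, 0 members called). An unadjusted p under 0.05 was found there for 1 member and for 625 of 14504 tested genes. Ccl25, a ligand of gut and thymus, had the smallest p, with a difference of -1.44 (SE 0.51, adjusted p = 0.986).

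The 12 members that were not tested were dim. Ccl11, Ccl12, Ccr1l1, Ccr8 and Cxcl11 were at the floor on all 17 arrays and Ccl1 on 16. Ccr3, the eosinophil receptor, was above the floor on 4 arrays, highest on 2 uninjured sham arrays (7.19 and 6.94). Ccr7, the lymph node homing receptor, was brightest on an uninjured sham mSSC array (8.17), and Cxcl15 (8.13) and Ccr4 (7.20) on the unstated mBCSP array. Ccl22 and Cxcr5 did not exceed 7.53 and 6.86.

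The other ligands did not pass in any comparison. Ccl25, Ccl28 and Cxcl17, ligands of mucosal tissues, were each brightest on the unstated mBCSP array (10.19, 9.37 and 8.62). On the other callus arrays Ccl25 ran no higher than 9.16, Ccl28 no higher than 7.91 and Cxcl17 no higher than 7.51. Their values there rest on 1 array. Ccl20 was brightest on the OVX callus mSSC array, at 8.58, where Ccl2 (10.13) and Ccl8 (8.98) were brightest as well.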

How the data were processed

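RNA of sorted mSSCs and mBCSPs was hybridized to 17 arrays. The deposited values are log2 intensities, 1 column per array. By the study's methods RNA was amplified in 2 rounds, arrays were exported to dChip, and values were normalized in Gene Expression Commons. The submitters' processing notes name MAS5 instead, without a version, so which tool made the deposited table is not settled. No depth applies to arrays, and their number limits the precision. Column medians were 7.66 to 7.88 (log2) as deposited.

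Of 45101 probe sets, 64 controls were left out, 932 with several symbols and 9160 with none were not named, and symbols came from the platform annotation. The gene ids of all 45 member genes matched RefSeq and 0 symbols changed. Values were quantile normalized on the linear scale, cut off from below at log2 5.951 (20th percentile), and converted back. The brightest probe set by mean stood for a gene (15 member genes had more than 1). A gene was tested if 2 or more arrays reached log2 7.198 (40th percentile). A floor or filter of this kind understates changes of dim genes.

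Tests were made with limma 3.58.1 in R 4.3.3 (lmFit, eBayes with trend) on all 17 arrays, over 7 comparisons, with Benjamini-Hochberg adjustment over all tested genes at 0.05. The injury fit had terms for population and title form (12 residual degrees of freedom) and the others for group, population and title form (7), or for the injury by population interaction (11). Arrays with conflicting or unstated surgery labels formed groups of their own. The named members are those called, the 5 of smallest p in comparisons of groups without a call, all tested ligands of the 3 main ligand lists, and, of the other ligands and receptors, every tested one by name and the 8 of widest range with values. Members and gene lists were chosen with earlier results of these data known, and no pattern is offered as independent support for those results. Promoters came from the RefSeq table for GRCm38.p6. Alternatives changed the normalization, floor, filter, probe set, title form term, moderation, test and placing of arrays. After the data were seen, counting the conflicting arrays as OVX in the estradiol comparison and leaving out the 4 arrays of unsettled labels were added.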

Additional observations from a re-analysis of the deposited data

Results flagged for a closer look

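Ccl7 on the sham callus mBCSP array of form i stood at 7.80, and the other 3 sham callus arrays at 6.48 to 6.59, a gap of 0.915 of the group's range (above the 95% critical value of Dixon's test for 4 arrays). It was the 1 such array among 33 members, each checked in the 1 group large enough for this. Chance flags about 1 in 20 such checks, so 1 flag among 33 is no more than chance gives. The group also mixes both populations and title forms i and ii, which the check does not allow for. No member had an interaction that passed the test.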

How the results depend on the processing

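Between callus and uninjured bone the number of members called was 11 to 15 when each array was left out in turn and 11 to 15 under the other settings, except within form iii alone, where it was 4 (2 arrays against 2). Ccl5 had the opposite sign there (0.13). Of the 221 values obtained by leaving out 1 array for the 13 called members, 210 kept their call, and the 11 lost ones were of Ccl5 and Cxcr4. Of the other settings' values for these members, 140 kept the call, 21 lost it, 8 of them within form iii, and 1 turned. Between OVX + E2 and OVX callus the count was 0 to 1 with each array left out (Cxcr4, without either unstated array), and 1 without the conflicting and unstated callus arrays. Between OVX and sham uninjured bone it was 1 without the title form term (Cxcl1), and 0 to 0 with each array left out, with no estimate without the single sham mSSC array. The counts of the other 4 comparisons were 0 in every setting. Signs turned for Cxcr4 in OVX against sham callus with the conflicting arrays counted as OVX (0.28), for Cxcl16 between populations on the probe set of widest range, which is its second one (0.0937), for Ccl25 in uninjured bone on its second probe set (0.16), and for Cxcl14 in uninjured bone without the title form term (0.72), with it as a random block (0.70) and in the methods' t-test (0.66). Over all tested genes, the count between OVX and sham uninjured bone went from 21 to 485 without the title form term, 244 with it as a random block, 46 without the filter, 42 without the 4 arrays of unsettled labels, 14 with robust moderation, 7 without quantile normalization and 0 in the methods' t-test. The same counts between callus and uninjured bone were 6150 in the main fit and 1154 within form iii. Those of OVX + E2 against OVX callus were 3 and 0 to 12, of the ovariectomy interaction 4 and 2 to 16, of OVX against sham callus 0 and 0 to 2, and of the injury by population interaction 0 and 0 to 4. The causes were not tested. The population comparison, with group and title form as terms, was itself a test within the 8 pairs of arrays. In the ovary comparisons the same terms left only the variation of the pair differences as spread. No paired analysis was possible between groups because the labels give them no shared replicate numbers.

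Probe sets differ in brightness, so the levels of different genes, such as those given for Sp7 and Itgav, cannot be ranked against each other. Values at the floor have no order. Groups of 2 arrays leave wide standard errors, and a p that missed the threshold does not show that members did not differ.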
